A study of Drosophila melanogaster with 3 samples.

Results

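The cytoplasmic ribosomal protein genes of Drosophila melanogaster were examined in chromatin immunoprecipitation followed by sequencing (ChIP-seq) for CG12942. They were taken from the Ensembl BDGP6 annotation as protein-coding genes whose symbol begins with RpL or RpS and a digit, together with RpLP0, RpLP1, RpLP2 and sta, the gene of the small subunit protein RpSA. This gave 92 of 13945 protein-coding genes on the 6 chromosome arms, 53 for the large and 39 for the small ribosomal subunit. A gene was counted as bound when the summit of a peak of the authors' optimal set on dm6 lay within 500 bp of a start of one of its protein-coding transcripts. By this rule 56 members were bound and 36 were not.

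The libraries came from whole embryos of mixed sex, aged 0 to 24 h, of a transgenic line that carries CG12942 with green fluorescent protein (GFP) at its C terminus, and the fusion was precipitated with an antibody against GFP. All 3 libraries are biological replicates of this 1 group, each from a biosample of its own and all from 1 line, per the labels. Each library therefore averages all embryonic stages and tissues, and it reports the tagged transgenic protein; weak binding in all cells and binding in few cells cannot be told apart. A control library was not analysed here, so genes were compared with other genes within the group. The read depth is unknown; the deposited replicate lists hold 30000, 30000 and 27870 peaks and the optimal set holds 3844.

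Ribosomal proteins join ribosomal RNA to build the large and small subunits, and their genes are transcribed strongly in nearly every cell in matched amounts. In Drosophila, losing 1 copy of many of them slows development and thins the bristles, the Minute phenotype. Many of these promoters lack a TATA box and use the TCT initiator, a pyrimidine-rich element at the start site, and several of the genes carry small nucleolar RNAs (snoRNAs) in their introns.

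Most ribosomal protein genes had a CG12942 peak at the promoter. In the optimal set 60.9% of them were bound (56 of 92), against 18.9% of the other protein-coding genes (2618 of 13853), and 19.2% of all protein-coding genes were called by the same rule. To obtain a spread between replicates, the strongest 3844 peaks of each replicate were taken. The bound members then numbered 55 in replicate 1, 60 in replicate 2 and 53 in replicate 3, beside 18.6%, 19.2% and 18.8% of all protein-coding genes in the same replicates. Their share was 60.9% ± 3.92, against 18.6% ± 0.269 for the other genes (SD, n = 3). The difference was 41.4, 46.3 and 39.1 percentage points, so every replicate put the ribosomal protein genes higher by far more than the replicates differed. The exact sign permutation test gave p = 0.25, two-sided, which is the smallest p this test can give with 3 replicates, here and in each comparison below.

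The strongest bound members came from both subunits. Signal below is the peak strength given by the authors' peak caller in the optimal set, and a rank counts from 1 for the strongest peak of a replicate's list. RpS27, a zinc-binding protein of the small subunit, had the highest signal of the members, 481.7, and ranked 130, 104 and 134 in replicates 1, 2 and 3. Its summits lay at -9, -20 and -17 bp from the start, where a negative value is upstream. RpL7 had a signal of 473.0 and ranks of 83, 149 and 177, with summits at 22, -45 and 24 bp. RpL34b followed with a signal of 448.5 and ranks of 141, 137 and 158. RpL23A, which in Drosophila carries an extension related to histone H1, had a signal of 399.0 and ranks of 184, 145 and 270. RpS20 had a signal of 344.6, ranks of 322, 202 and 254 and summits at -143, -204 and -192 bp. These 5 genes were the only members among the strongest 10% of the optimal set, and each kept a rank below 500 in every library.

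Other strong members were RpL28 (signal 242.1), RpL22 (240.4), RpL30 (236.7), RpL41 (214.5), RpL17 (212.0), RpL13A (211.9), RpL14 (209.9), RpS16 (209.7) and RpLP0 (202.2). RpL32 (200.5), RpS29 (200.3), RpL24 (198.7), RpS21 (191.4) and RpS25 (183.9) were also among the 20 strongest. RpLP0 is the anchor of the stalk that recruits elongation factors, RpL22 is the other member with an extension related to histone H1, and RpL32 is widely used as a reference transcript in fly work. Of these 20 genes 14 belong to the large and 6 to the small subunit, and all 20 were among the strongest 3844 peaks in each of the 3 replicates. Their summits lay within 100 bp of a start in 17 cases.

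The promoters of 6 of the strongest members are printed from 120 bases before the annotated start to 20 bases from it. The optimal summits of RpS27, RpL34b, RpL23A and RpL28 fall inside these windows. That of RpL7, at 22 bp, lies just past its window, and that of RpS20, at -205 bp, lies upstream of its window. The sequence was read from the RefSeq dm6 genome in the direction of transcription, and a window was shortened where another exon began. Capitals mark matches to the motifs described further on.
RpS27, chr3R:25247495-25247634, minus strand: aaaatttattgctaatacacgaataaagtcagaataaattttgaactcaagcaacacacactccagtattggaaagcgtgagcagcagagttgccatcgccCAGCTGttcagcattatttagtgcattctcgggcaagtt
RpL7, chr2L:10200975-10201023, plus strand: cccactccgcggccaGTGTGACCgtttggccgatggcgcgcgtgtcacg
RpL34b, chr3R:9401207-9401346, minus strand: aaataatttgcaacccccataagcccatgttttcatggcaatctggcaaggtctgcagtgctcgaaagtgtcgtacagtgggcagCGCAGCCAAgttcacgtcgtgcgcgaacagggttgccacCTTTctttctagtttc
RpL23A, chr3L:1668635-1668774, minus strand: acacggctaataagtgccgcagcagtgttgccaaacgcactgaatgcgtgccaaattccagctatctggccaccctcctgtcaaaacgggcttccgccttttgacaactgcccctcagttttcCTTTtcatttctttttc
RpS20, chr3R:20822061-20822200, plus strand: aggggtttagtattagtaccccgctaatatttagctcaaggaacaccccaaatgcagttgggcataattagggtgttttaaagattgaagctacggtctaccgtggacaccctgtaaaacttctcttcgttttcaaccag
RpL28, chr3L:3222941-3223080, minus strand: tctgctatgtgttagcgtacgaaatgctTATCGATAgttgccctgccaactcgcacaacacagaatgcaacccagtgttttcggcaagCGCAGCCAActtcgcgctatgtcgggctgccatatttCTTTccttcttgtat

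The remaining 36 bound members had weaker signals. Those of the large subunit were RpL3, RpL4, RpL8, RpL10, RpL11, RpL13, RpL15, RpL18, RpL19, RpL23, RpL26, RpL27, RpL27A, RpL31, RpL34a, RpL36, RpL37-1, RpL37A, RpL39 and RpLP2. Those of the small subunit included RpS3A, RpS4, RpS5a, RpS6, RpS7, RpS10b, RpS12, RpS14b, RpS15Aa, RpS19a, RpS23, RpS26, RpS27A and RpS28b. RpL11, a partner of the ribosomal 5S RNA, had a signal of 165.5 but uneven ranks of 377, 3283 and 2167. RpS12, a protein that in Drosophila takes part in cell competition, ranked 2009, 1361 and 3401. RpS6, the substrate of S6 kinase, had a signal of 84.1 and ranked 4208, 2029 and 3408. The summits behind these ranks of RpS6 lay at 59, -405 and -485 bp. The ranks of RpL11 spanned far more of the list than those of the 5 strongest genes.

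**Figure D1:**
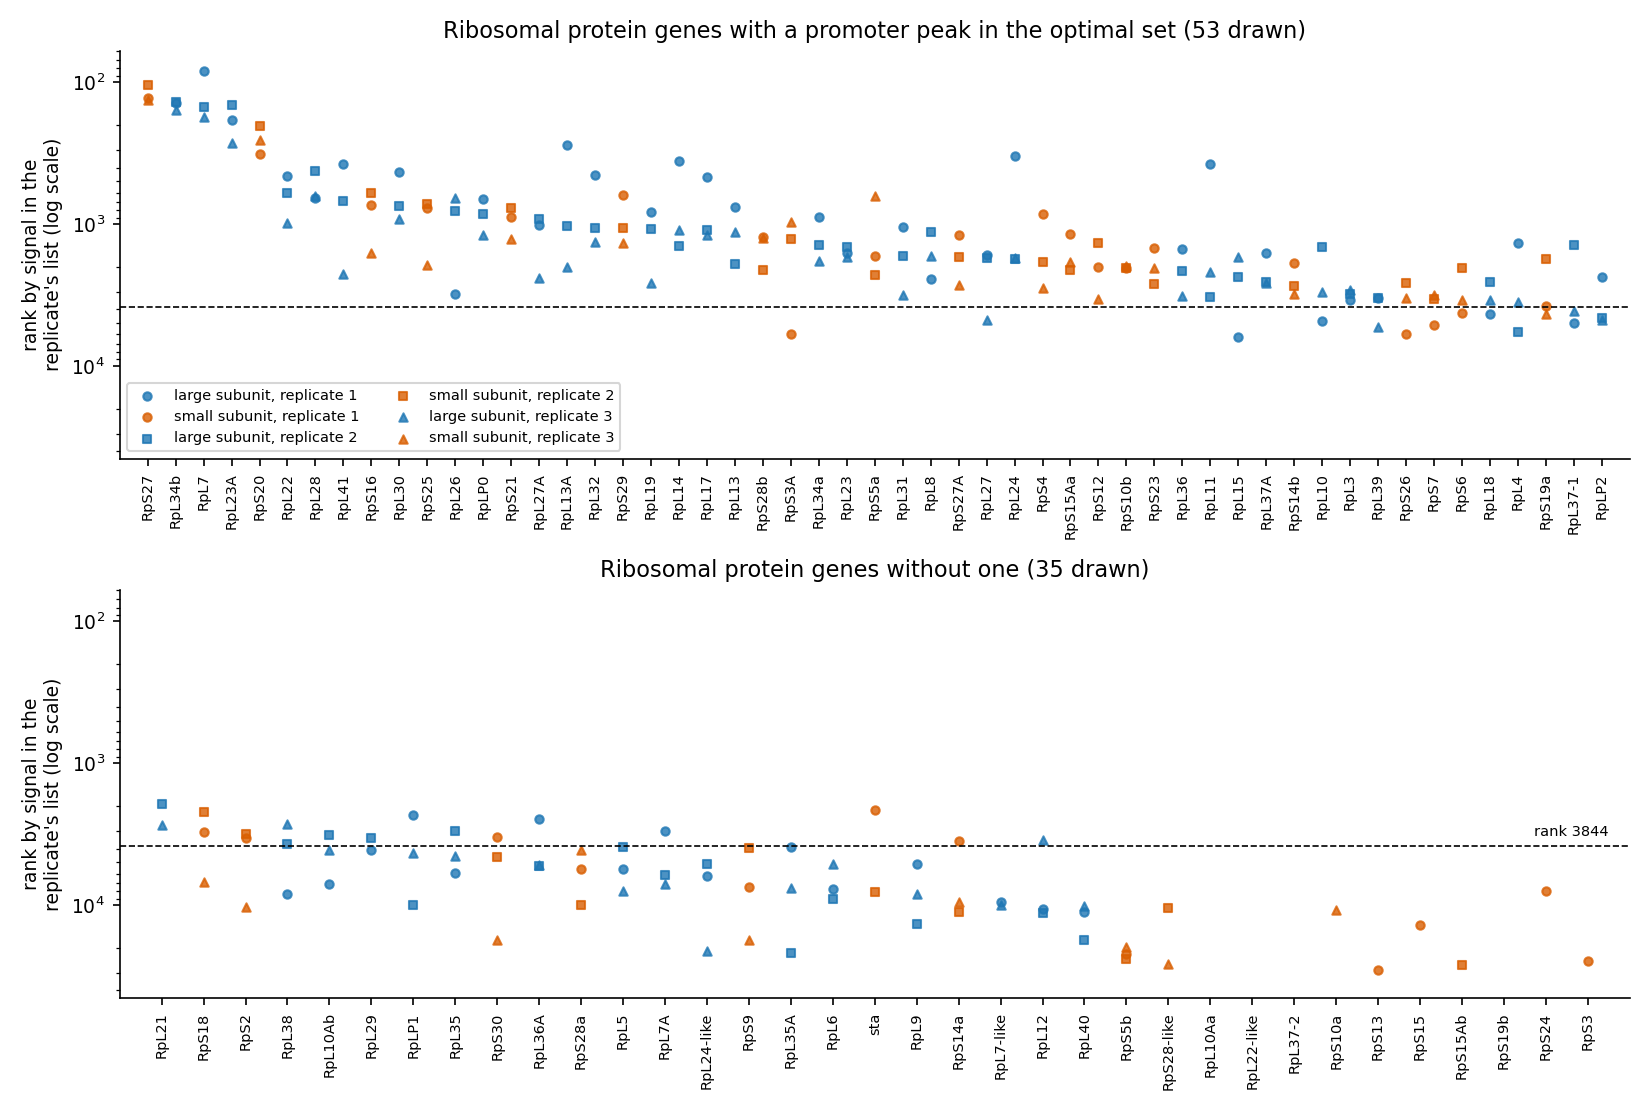
Rank of the strongest promoter summit of each ribosomal protein gene in each replicate's own list (log scale, strongest at the top), with bound members above and unbound members below; colour gives the subunit, marker the replicate, and the dashed line rank 3844. Members not reported by name are not drawn, and a member with no promoter summit in a list has no point there; RpS27, RpL34b, RpL7, RpL23A and RpS20 sit between rank 83 and rank 322 in all 3 libraries.

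The unbound members were not all without a peak: most had a weaker one at the promoter. Of the 36, 21 had a promoter peak somewhere in the full list of all 3 replicates, 5 in 2 lists, 6 in 1 list and 4 in none, whereas all 56 bound members had one in every list. Over the full lists, which run down to background peaks, 91.3%, 89.1% and 88.0% of ribosomal protein genes had a promoter summit, against 53.9%, 49.5% and 45.2% of the other genes. These shares take bound and unbound genes together, and no share is given for the unbound other genes alone. The optimal set was the same as the strongest 3844 peaks of the pooled list (3844 of 3844), so a call turned on the pooled rank. Just inside lay RpS7 and RpLP2, at pooled ranks 3756 and 3842. Just outside lay RpL10Ab at 3886, RpS2 at 3969, RpL21 at 3992, RpL38 at 4010, RpL36A at 4104 and RpL7A at 4165. These genes differ little in pooled rank although the rule separates them.

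Among the unbound members, 10 were in the strongest 3844 peaks of 1 replicate, 4 in those of 2 and none in those of all 3. The 4 were RpL21, with ranks of 1936 and 2727 in replicates 2 and 3 and no promoter peak in replicate 1, RpL38 (8414, 3699 and 2664), RpS2 (3377, 3177 and 10300) and RpS18 (3068, 2216 and 6917). No unbound member reached the strongest 500 peaks of a replicate. The unbound members of the large subunit with a peak in every list were RpL5, RpL6, RpL7A, RpL9, RpL10Ab, RpL12, RpL24-like, RpL35, RpL35A, RpL36A, RpL38, RpL40 and RpLP1. RpL5 is the partner of RpL11 and of the 5S RNA, and it ranked 5592, 3882 and 7977. RpL21, RpL29 and RpL7-like had peaks in 2 lists, and RpL10Aa, RpL22-like and RpL37-2 had none in any.

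In the small subunit, the unbound members with a peak in every list included RpS2, RpS5b, RpS9, RpS14a, RpS18, RpS28a and RpS30. RpS28-like and sta had peaks in 2 lists, and RpS3, RpS10a, RpS13, RpS15, RpS15Ab and RpS24 had 1 each. RpS19b had none. RpS3, which lines the channel where messenger RNA enters, was thus among the weakest, with a single peak at rank 24882 in replicate 1, and RpS13 had a single peak at rank 28663 there. Genes that encode ubiquitin fused to a ribosomal protein split: RpS27A was bound with a signal of 139.2 and ranks of 1198, 1706 and 2673, whereas RpL40 was unbound with ranks of 11169, 17517 and 10138. RpS30, fused to a ubiquitin-like protein, was unbound with ranks of 3310, 4615 and 17678. The stalk proteins split as well: RpLP0 ranked 666, 852 and 1201, RpLP2 ranked 2345, 4623 and 4730, and RpLP1 was unbound with ranks of 2324, 9976 and 4318.

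Large subunit genes were bound somewhat more often than small subunit genes. In the optimal set 34 of 53 large subunit genes (64.2%) and 22 of 39 small subunit genes (56.4%) were bound. The replicates gave 62.3%, 69.8% and 62.3% for the large subunit and 56.4%, 59.0% and 51.3% for the small subunit. The difference was 5.85, 10.8 and 11 percentage points, or 9.22 ± 2.92 (SD, n = 3; exact sign permutation p = 0.25, two-sided). All 3 replicates pointed the same way, but the difference amounts to a few genes. It was 7.74 points in the optimal set, and 12.3, 12.5 and 4.11 points when replicates 1, 2 and 3 were left out in turn. Strength followed the same order. Among bound genes the median signal percentile, 100 being the strongest peak of the list, was 78.7, 63.0 and 54.9 for the large subunit, against 59.0, 47.2 and 48.8 for the small subunit (difference 13.8 ± 7.01 points, SD, n = 3, exact sign permutation p = 0.25, two-sided).

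Ribosomal protein peaks were many but not strong for promoter peaks. Their median percentile in the optimal set was 61.7, against 57.4 for the peaks at other promoters, and 5 of 56 (8.93%) were among the strongest 10% of the set, against 14.0% of the other promoter peaks. Within replicates the median percentile of the members was 69.2, 56.1 and 52.1, against 55.7, 58.2 and 58.7 for other promoters. The difference was 13.5, -2.15 and -6.57 points (mean 1.6 ± 10.5, SD, n = 3, exact sign permutation p = 1.0, two-sided), and its sign changed between libraries. The excess in number held at every list depth tried. In the strongest 500 peaks 9.41% ± 5.13 of ribosomal protein genes were found, against 3.52% ± 0.361 of the other genes, and in the strongest 2000 peaks 38.0% ± 4.74, against 11.5% ± 0.416 (SD, n = 3). Replicate 1 stood out at the top of the list, with 14 members in its strongest 500 peaks, beside 7 and 5 in replicates 2 and 3. Of those 14 in replicate 1, 12 belonged to the large subunit.

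**Figure D2:**
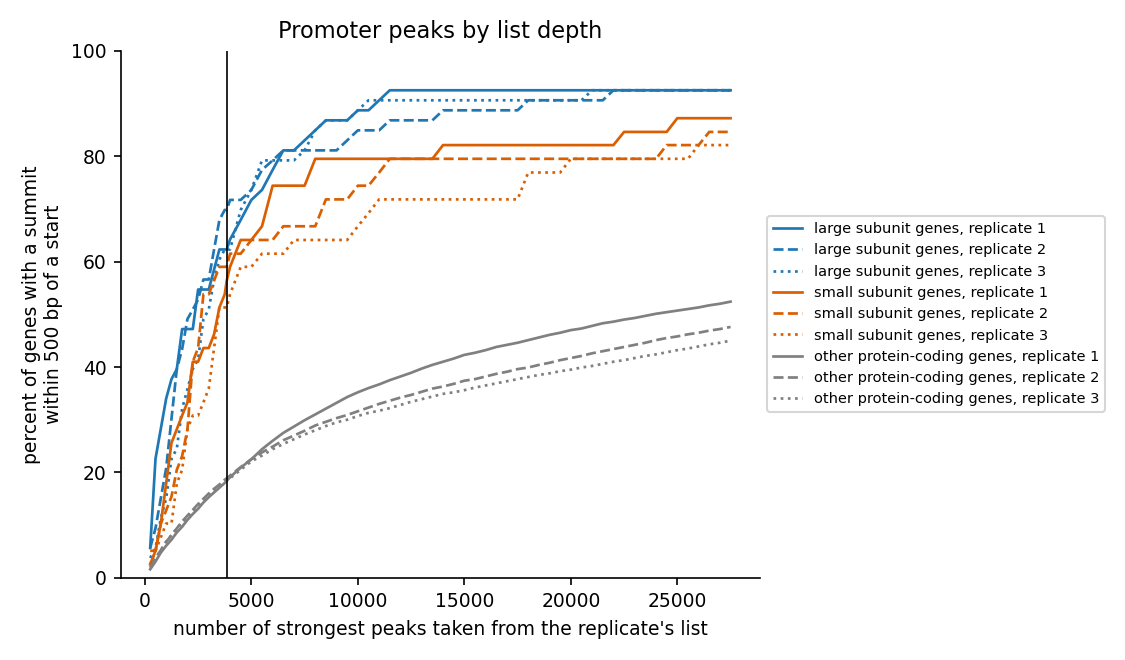
Percent of large subunit, small subunit and other protein-coding genes with a summit within 500 bp of a start (y axis) as more of the strongest peaks of each replicate's list are taken (x axis); line style gives the replicate and the vertical line marks 3844 peaks. At that depth 62.3%, 69.8% and 62.3% of large subunit genes and 56.4%, 59.0% and 51.3% of small subunit genes are reached, above the other genes at 18.4%, 18.9% and 18.5%.

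Replicates ordered the bound members alike in part. Spearman's rho of the ranks over the 56 bound genes was 0.652 between replicates 1 and 2, 0.627 between 1 and 3 and 0.69 between 2 and 3, given as a description because the genes share their libraries. Of the 56 optimal summits, 41 were matched within 200 bp by a summit in the strongest 3844 peaks of all 3 replicates, 12 by 2 and 3 by 1. RpL37-1 and RpLP2 were among the 3. The summit of a bound gene moved by a median of 56.0 bp between its lowest and highest position over the replicates.

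The summits at ribosomal protein genes lay closer to the start than those at other bound genes. The median position in the optimal set was -51.5 bp, with the middle 50% of genes between -82.2 and -15.8 bp. At the other 2618 bound genes the median was -135.0 bp, with quartiles of -217.0 and -71.0 bp. In replicates 1, 2 and 3 the medians were -33.0, -57.5 and -48.0 bp at ribosomal protein genes, against -129.0, -134.0 and -139.0 bp at the other bound genes. The members were nearer by 96.0, 76.5 and 91.0 bp, which is 87.8 ± 10.1 bp (SD, n = 3, exact sign permutation p = 0.25, two-sided). With replicates 1, 2 and 3 left out in turn the median was -57.0, -30.5 and -26.0 bp at the members, against -139.0, -141.0 and -140.0 bp at the other bound genes. Summits within 100 bp of a start made up 47 of 56 (83.9%) at ribosomal protein genes, against 830 of 2618 (31.7%) at other bound genes. Upstream summits were 83.9% at members and 90.8% at other bound genes.

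**Figure D3:**
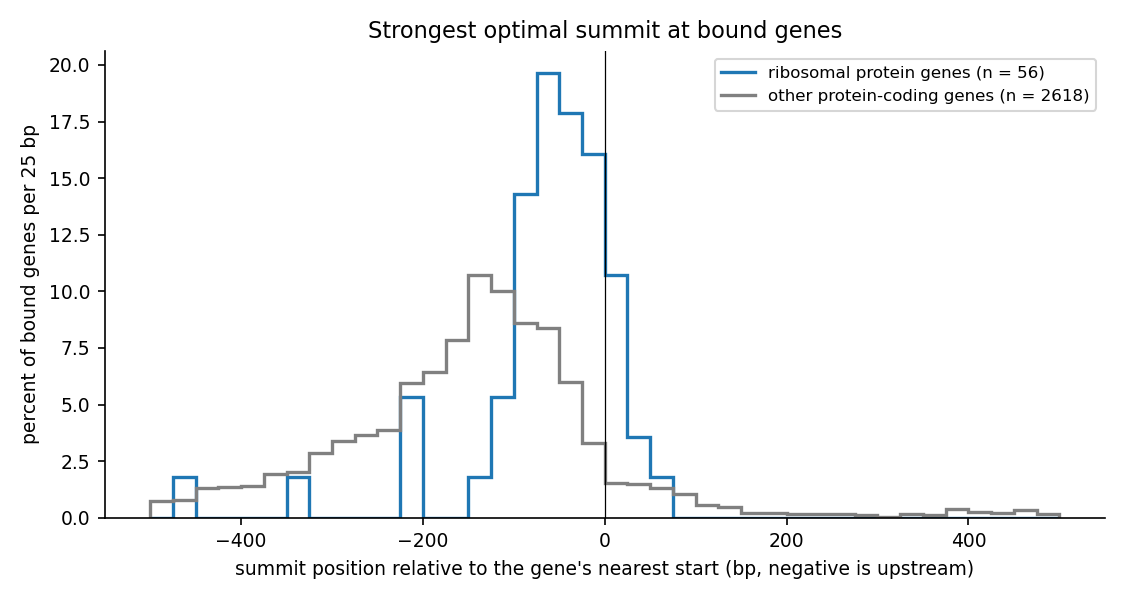
Position of the strongest optimal summit relative to the nearest start of the gene (x axis, bp, negative is upstream) as a percent of bound genes in each 25 bp step (y axis), for 56 ribosomal protein genes and 2618 other genes. The ribosomal protein summits crowd between -100 bp and the start, with a median of -51.5 bp, against -135.0 bp for the other genes.

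The closeness was also seen within each kind of promoter. Promoters that face a second gene in the opposite direction with starts within 500 bp, here called head-to-head, had median summits at -53.0 bp for ribosomal protein genes and -127.0 bp for other genes. Promoters that were not head-to-head had medians of -50 bp for ribosomal protein genes and -149.0 bp for other genes. With the further limit of 1 annotated start, the medians were -65.0 bp (15 genes) for ribosomal protein genes and -150 bp (559 genes) for other genes. Of the mitochondrial ribosomal protein genes 26 of 73 (35.6%) were bound, against 18.9% of the genes outside the cytoplasmic set. Their median position was -139.0 bp, and 34.6% of their summits were within 100 bp of a start, so in position they lay near the other genes. The bound share of the cytoplasmic set exceeded that of the mitochondrial set by 24.2, 20 and 23.4 percentage points in the 3 replicates (22.5 ± 2.2, SD, n = 3, exact sign permutation p = 0.25, two-sided).

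The 9 members whose summit lay at or beyond the start included RpL3, RpL7, RpL26, RpL27A, RpL30, RpS4, RpS15Aa and RpS28b, with the summit of RpS28b at 0 bp and that of RpL26 at 40 bp downstream. At the other end lay RpS6 at -455 bp, RpL18 at -348 bp, RpLP2 at -213 bp and RpS20 at -205 bp. Single replicates differed: the strongest promoter summit lay at 59 bp for RpS6 and -8 bp for RpL18 in replicate 1. For RpLP2 it lay at -25 bp in replicate 3. In 5 genes the optimal summit was nearer to the start of a neighbour than to that of the ribosomal protein gene. Among them were RpS6 with bys, a ribosome biogenesis gene, RpL18 with Neos, RpS20 with CG17271 and RpL13 with Dref, the gene of the factor that binds the DRE motif. Which gene of such a pair a peak belongs to cannot be told apart from its position.

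Head-to-head ribosomal protein genes were bound more often than the rest of the family. Of 36 head-to-head ribosomal protein genes 25 (69.4%) were bound, and of the 56 others 31 (55.4%). The difference was 25, 6.94 and 10.3 percentage points in the replicates (14.1 ± 9.6, SD, n = 3, exact sign permutation p = 0.25, two-sided), and 8.33 points when replicate 1 was left out. Among the remaining protein-coding genes 40.3% of head-to-head genes and 10.9% of the rest were bound, with differences of 27.9, 28.1 and 28 points in the replicates; whether the 2 gene sets differ in this was not tested. Ribosomal protein genes outside head-to-head pairs exceeded the other genes outside such pairs by 39.2, 51.3 and 42.7 percentage points. These gene sets were matched in no other trait. Members with several annotated starts were bound in 31 of 45 cases (68.9%) and those with 1 start in 25 of 47 (53.2%). Among other genes, 30.1% with several starts and 14.9% with 1 start were bound. In the 10 paralog families below with 1 bound and 1 unbound gene, every unbound copy except RpL7-like had 1 start. The shares by number of starts were not adjusted for this. Peaks were found at 22 of 29 members that host a snoRNA (75.9%) and at 34 of 63 that do not (54.0%). The difference was 13.4, 10.5 and 26.7 points in the replicates (exact sign permutation p = 0.25, two-sided). None of the unbound copies in the 10 families hosts a snoRNA, and the shares were not adjusted for this. No share is given for snoRNA hosts among other genes. RpS5a hosts 14 annotated snoRNAs and RpL28 and RpS16 host 5 each, and all 3 were bound.

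By chromosome arm, 12 of 14 members on 3L and 11 of 15 on X were bound in the optimal set. The counts were 13 of 23 on 3R, 10 of 20 on 2R and 9 of 19 on 2L. In replicates 1, 2 and 3 the shares were 64.3%, 92.9% and 78.6% on 3L and 80%, 80% and 60% on X. They were 52.2%, 47.8% and 52.2% on 3R, 55%, 60% and 50% on 2R and 57.9%, 57.9% and 52.6% on 2L. The order of the arms thus varied between replicates and was not tested. RpS3A, the only member on chromosome 4, was bound with a signal of 140.3 but ranked 5939, 1265 and 967, so it was outside the strongest 3844 peaks of replicate 1. Other genes were bound at similar shares on the large arms, from 16% on X to 20.8% on 3R.

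Paralogous ribosomal protein genes were seldom bound together. Of 12 families with 2 genes, 10 had 1 bound and 1 unbound gene, RpL34a and RpL34b were both bound, and RpL10Aa and RpL10Ab were both unbound. Whether this differs from what the bound share of the family genes alone would give was not tested. Several of the unbound copies are expressed mainly in the germline, among them RpL22-like in testis and RpS5b, RpS10a and RpS19b in the gonads, and RpL24-like is related to an assembly factor of yeast. RpL22 ranked 459, 601 and 986, and RpL22-like had no promoter peak in any list. RpL7 ranked 83, 149 and 177, whereas RpL7-like ranked 9587 and 9945 in replicates 1 and 3 and was missing from the list of replicate 2. RpS5a ranked 1668, 2278 and 629, whereas RpS5b ranked 22037, 24161 and 19643. RpS19a ranked 3791, 1754 and 4339, and RpS19b had no peak in any list. In these families the ranks of the 2 copies did not overlap. The calls rest on the pooled rank over the same 3 libraries, so such an order was favoured by the calls themselves.

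The other pairs were RpL24, bound, with RpL24-like, RpL37-1 with RpL37-2, RpS10b with RpS10a, RpS14b with RpS14a, RpS15Aa with RpS15Ab and RpS28b with RpS28a, each with the bound gene named before the unbound one. RpS14a and RpS14b are neighbours with starts 1156 bp apart. RpS14b had ranks of 1869, 2747 and 3123 and RpS14a ranks of 3520, 11164 and 9569, so RpS14a was within the strongest 3844 peaks of replicate 1 alone, the only unbound copy of the 10 families to be so. How reads that match both copies were placed is not given in the sources used here. Outside the families and the unpaired RpS28-like gene, 44 of 67 members (65.7%) were bound.

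**Figure D4:**
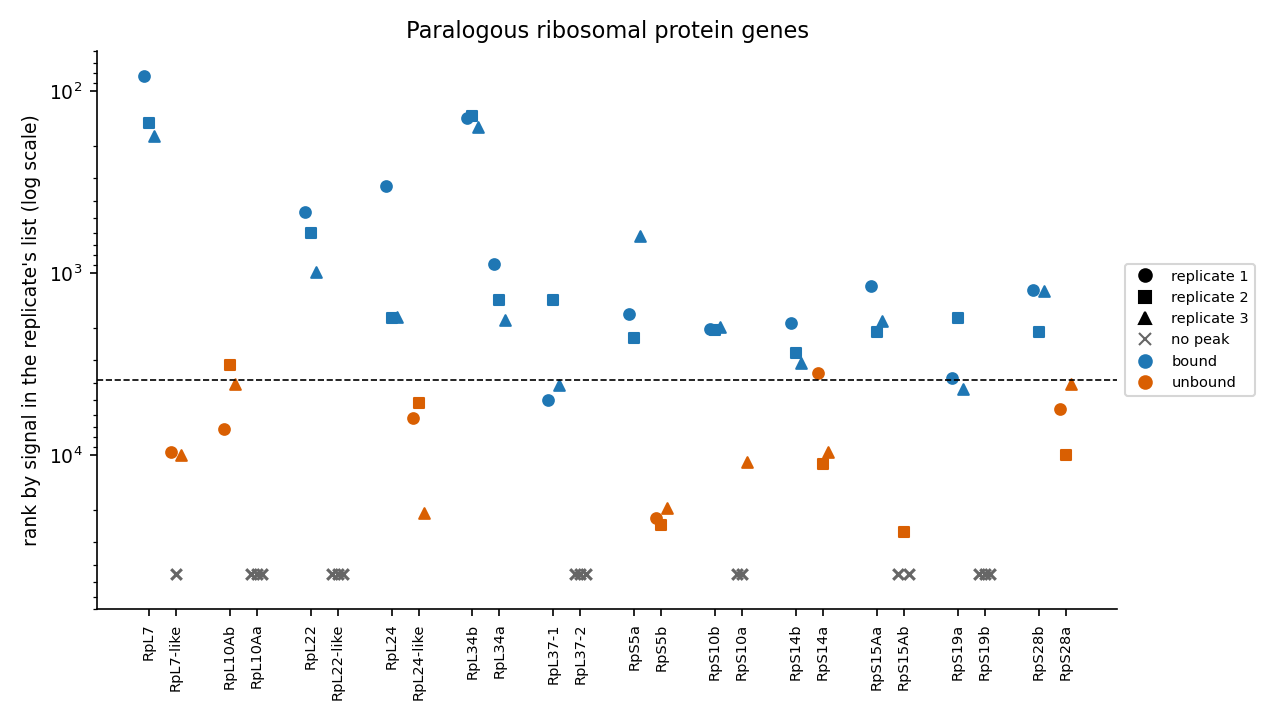
Rank of the strongest promoter summit in each replicate's list (log scale, strongest at the top) for 12 families of 2 paralogous genes, with bound genes in blue and unbound genes in orange; grey crosses mark lists with no promoter summit and the dashed line rank 3844. In 10 families the bound gene stands left of the unbound one and all its points lie above those of its partner. The calls come from the pooled list of the same libraries, which favours this order.

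Promoters of 4 such pairs, bound copy before unbound copy, are shown from 40 bases before the start to 20 bases from it. The copies encode related proteins and differ in their calls. These pairs are examples, and others, such as RpL7 with RpL7-like and RpS14b with RpS14a, are not printed. They do not measure how often bound and unbound copies hold a marked element.
RpS19a, chrX:16637854-16637913, plus strand: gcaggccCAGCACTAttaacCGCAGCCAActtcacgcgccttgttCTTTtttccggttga
RpS19b, chr3R:23933511-23933570, minus strand: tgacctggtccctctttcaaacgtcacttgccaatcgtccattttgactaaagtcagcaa
RpS28b, chrX:9554583-9554642, plus strand: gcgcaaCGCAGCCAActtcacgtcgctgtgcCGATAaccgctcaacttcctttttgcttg
RpS28a, chr3R:30022629-30022688, minus strand: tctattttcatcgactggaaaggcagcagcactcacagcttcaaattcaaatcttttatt
RpS5a, chrX:17148245-17148304, minus strand: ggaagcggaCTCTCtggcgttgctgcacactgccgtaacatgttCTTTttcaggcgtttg
RpS5b, chr3R:14901544-14901603, minus strand: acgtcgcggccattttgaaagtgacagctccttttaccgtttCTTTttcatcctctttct
RpL24, chr2L:13395112-13395171, minus strand: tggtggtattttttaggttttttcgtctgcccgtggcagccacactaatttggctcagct
RpL24-like, chr3R:11431563-11431622, minus strand: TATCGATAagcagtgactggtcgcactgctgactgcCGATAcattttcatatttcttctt

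The sequence around ribosomal protein summits differed from that around other promoter summits. Within 50 bp of the summit, the median GC content was 46.0% at the 56 members and 33.7% at 1949 other promoter summits. The DRE (TATCGATA), the site of DREF, was found at 12 of 56 member summits (21.4%), against 2.87% of the others. The core of motif 1 (GGTCACAC), bound by M1BP, which is known from fly ribosomal protein promoters, was found at 10.7% of member summits, against 1.39%. The E-box CACGTG, a site of Myc, was found at 7.14% against 1.13%. The shorter CGATA, which BEAF-32 binds and which also lies inside the DRE, was found at 42.9% against 22.7%. The E-box CAGCTG (7.14% against 5.08%) and the motif 7 core CANCNCTA (10.7% against 8.93%) were close, and the TATA box TATAAA (14.3% against 21.5%) and GAGAG (3.57% against 8.31%) were less frequent at members. All motifs were searched on both strands, and the values are descriptions of these windows.

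AT-rich stretches that marked the other promoter summits were scarce at the members. The 3 7-mers with the largest excess over flanking windows at other promoter summits were TTAAAAA, then TTTAAAA, and AAATAAA, each with its reverse complement. They were found at 3.57%, 1.79% and 7.14% of member summits, against 17.5%, 15.5% and 18.5% of the other summits. Because they were picked for their excess at those other summits, a lower share at the members was favoured in advance. That holds also for the repeat within 100 bp below, so the 7-mer shares are a description only. In whole promoters, from 250 bases before to 50 after a start, they were found at 28.6%, 39.3% and 41.1% of bound members and 29.4%, 27.8% and 35.2% of all protein-coding genes. The letters were thus present in member promoters. The promoter windows are longer than the summit windows, so these shares do not show where the letters lie relative to the summit. Since member summits lie nearer to starts, the comparison was repeated, after the data had been seen, with summits within 100 bp of a start. The 47 members and 800 other summits then had GC contents of 47.5% and 37.6%, DRE shares of 23.4% and 6.12%, motif 1 shares of 12.8% and 2.62% and TATA shares of 14.9% and 15.4%. The 3 7-mers were found at 2.13%, 2.13% and 8.51% of members and 15.4%, 14.0% and 17.8% of others. These differences kept their direction within 100 bp, the TATA box by a small margin; distances inside that range were not matched, and the other motifs were not counted there.

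The 12 bound members with a DRE within 50 bp of the summit included RpL19, RpL27, RpL28, RpL36, RpL39, RpL41, RpS10b, RpS12, RpS15Aa, RpS25 and RpS29. The element was present at similar shares in bound and unbound members. In whole promoters the DRE was found in 32.1% of bound and 27.8% of unbound members, against 9.37% of all protein-coding genes, and the motif 1 core in 16.1% and 16.7%, against 7.71%. The letters TATAAA were found in 48.2% and 50%, against 45.9%. A match at any position of the window on either strand counted, so these are not shares of promoters with a placed TATA box. CGATA was found in 76.8% and 66.7%, against 47.5%, and the motif 7 core in 25% and 30.6%, against 15.6%. The E-boxes CAGCTG (10.7% and 8.33%, against 17.7%) and CACGTG (8.93% and 8.33%, against 4.24%) and GAGAG (16.1% and 16.7%, against 29.8%) also differed by few points between bound and unbound members.

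The core of the TCT initiator was searched as CTTT on the sense strand, starting within 5 bases of an annotated start, as capitals show in RpL34b, RpL23A and RpL28 above. It was found in 58 of 92 members (63.0%) and in 8.07% of all protein-coding genes. A match at any annotated start counted, so more sequence was searched in genes with several starts. Several starts were annotated for 45 of 92 members and 3654 of 13853 other genes. They were annotated for 31 of 56 bound and 14 of 36 unbound members. The shares here were not adjusted for this. Bound members had it in 38 of 56 cases (67.9%) and unbound members in 20 of 36 (55.6%). Read the other way, 65.5% of members with the core and 52.9% of members without it were bound, and among other genes 22.1% with the core and 18.6% without it. RpL22, RpL17, RpL41 and RpS20 were among the 18 bound members without it. Of the unbound paralog copies with a bound partner, RpL22-like, RpL24-like, RpS10a, RpS15Ab, RpS19b and RpS28a also lacked the core. RpL7-like, RpL37-2, RpS5b and RpS14a had it. The shares of bound and unbound members were not adjusted for these copies. Whether binding within the family goes with the core was not tested.

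**Figure D5:**
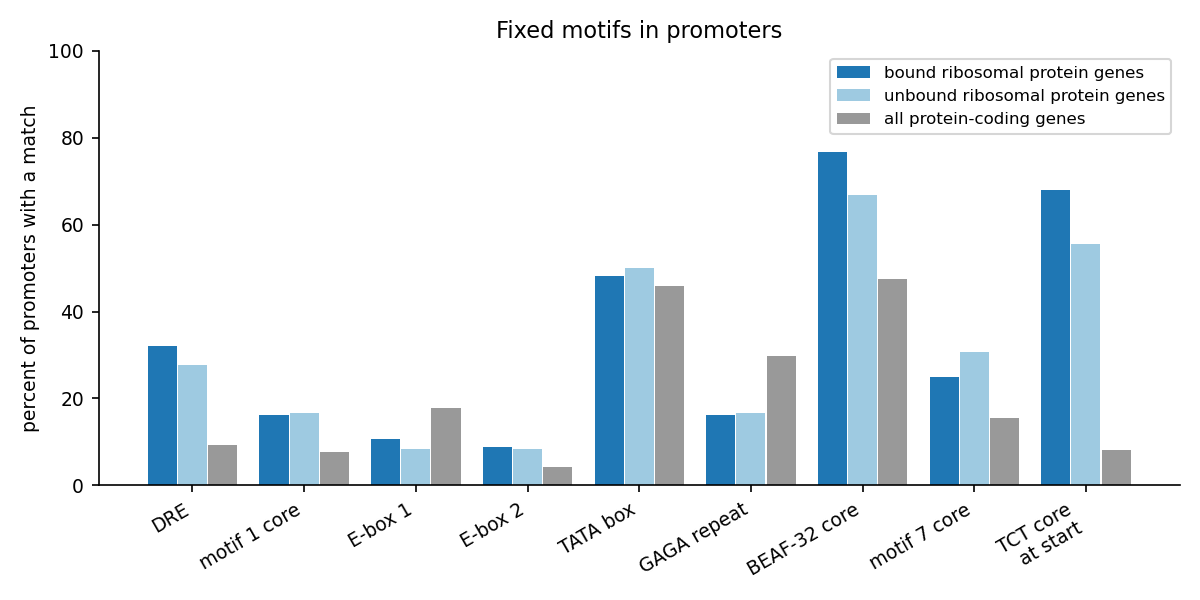
Percent of promoters, from 250 bases before to 50 bases after a start, that hold a match to each motif (y axis) in bound ribosomal protein genes, unbound ribosomal protein genes and all protein-coding genes; E-box 1 and E-box 2 are the CAGCTG and CACGTG forms, and the TCT core was searched within 5 bases of a start. The DRE is found in 32.1% of bound and 27.8% of unbound members, against 9.37% of all genes, and the TCT core in 67.9% and 55.6%, against 8.07%.

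A 9-base run, CGCAGCCAA or its reverse complement TTGGCTGCG, recurred in the printed promoters of RpL34b, RpL28, RpS19a and RpS28b and was counted after those had been seen. It was found in 8 of 56 bound members (14.3%) and in none of the 36 unbound members, against 65 of 13945 protein-coding genes (0.466%). The 8 were RpL27A, RpL28, RpL34b, RpS6, RpS19a, RpS21, RpS27 and RpS28b. At summits it lay within 50 bp in 5 of 56 members (8.93%) and 1 of 1949 other promoter summits (0.0513%). Outside the ribosomal protein genes, 13 of 57 genes with the run in the promoter (22.8%) were bound, close to the 19.2% of all genes. Because the run was picked from bound members, these counts are a description and were not tested.

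Genes that act in making the ribosome were set beside the members. A list of 57 ribosome biogenesis genes had 23 bound (40.4%), against 19.2% of all protein-coding genes. In the replicates 18, 23 and 23 were bound (31.6%, 40.4% and 40.4%), against 18.6%, 19.2% and 18.8% of all protein-coding genes. Without replicate 3 the share was 26.3%, against 14.7% of all protein-coding genes. The ribosomal protein genes exceeded this share by 28.2, 24.9 and 17.3 percentage points (23.4 ± 5.61, SD, n = 3, exact sign permutation p = 0.25, two-sided). The strongest was eIF6, a factor that keeps the subunits apart until the large one is mature, with a signal of 837.4 and ranks of 30, 19 and 31, above every ribosomal protein gene in each library. Ns2, a nucleolar GTPase, had a signal of 395.3 and ranks of 218, 143 and 235, and l(3)72Dn had a signal of 271.1 and ranks of 445, 461 and 468. Fib, the methyltransferase of ribosomal RNA known as fibrillarin, ranked 1223, 957 and 1808, Nopp140 ranked 2050, 977 and 1029, and NHP2 ranked 1014, 1577 and 1325. RIOK1 and RpLP0-like had signals of 188.3 and 164.7. The list also holds Rrp1 and pes, which have other functions and were both bound; without them 21 of 55 (38.2%) were bound. The bound biogenesis genes had a median summit position of -94.0 bp in the optimal set and of -100.0, -144.0 and -107.0 bp in the replicates, against -135.0 bp and -129.0, -134.0 and -139.0 bp at genes outside the cytoplasmic ribosomal set. In replicate 2 they thus lay farther out than those genes.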

How the data were processed

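ChIP-seq of GFP-tagged CG12942 was measured in 3 biological replicates of 0 to 24 h embryos, grouped by the labels. Per the listings of files deposited by the authors, peaks had been called in each library separately and in the pooled alignments, with a control alignment as background, and the optimal list had been derived from these with IDR, which keeps peaks ranked alike. The aligner and peak caller were not given in the sources used here. Peak strength is the signal value deposited by the authors, whose scale depends on depth, so it served only for ranking within a list. The −log10 q-value deposited by the authors was not used. The 5 lists on dm6 were analysed; those on dm3 were not used here.

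Summits were set against starts of protein-coding transcripts (Ensembl release 115) and the RefSeq dm6 genome; coordinates are 1-based. Each replicate's strongest 3844 peaks, the size of the optimal set, gave a value per replicate, and differences were tested with an exact sign permutation over 3 replicates. The code was tested on simulated data. Members and lists were chosen with earlier results of these data known. The list of biogenesis genes had 64 symbols, of which 57 genes were matched. Named were the 20 strongest bound members, every unbound member, the paralogs, and up to 10 bound biogenesis genes, except a few genes that are counted but not reported here by name. Promoter windows, starts, thresholds, member lists, matching distances and replicates were varied. Scripts ran under Python 3.11.15 with pandas 2.3.3, numpy 2.4.6 and scipy 1.17.1, and plots were drawn in matplotlib 3.10.9.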

Additional observations from a re-analysis of the deposited data

How the results depend on the processing

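Of 82 alternative values, 59 stayed within the spread between replicates or within 1.5 times a count, 20 moved further and 3 changed sign. The 59 include values that could not differ from the main ones. The strongest 3844 pooled peaks were the optimal set itself. The 56 bound members had 56 distinct summits, so counting shared summits once changed nothing. No member with a symbol ending in -like was bound, so leaving these out could not move the position values. The bound share of ribosomal protein genes was 41.3% when only the stronger 50% of the optimal peaks were kept and 44.6% when a match in all 3 replicates was required, beside 11.2% and 13.1% of other genes. Leaving out 1 replicate meant taking peaks of one remaining replicate matched in the other, a set of 2784 to 2979 peaks in place of 3844, so fewer genes could be called. The share was then 45.7% to 53.3%, against 14.3% to 15.6% of other genes, the large minus small subunit difference 4.11 to 12.5 points, the median summit position -57.0 to -26.0 bp and the upstream share 83.0% to 89.8%. With the outermost start alone the upstream share was 78.6%.

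The difference in median signal percentile was -7.08 points for the stronger peaks, -3.91 for those matched in all 3 replicates and -5.14 to 15.8 without 1 replicate, so its sign was not stable; the cause was not tested. The biogenesis share was 45.6% within 1000 bp, 21.1% for the stronger peaks, 26.3% when matched in all 3 replicates and 26.3% to 31.6% without 1 replicate; without Rrp1 and pes, an alternative chosen after seeing the data, it was 38.2%. A window of 100 bp raised the share of member summits with any of the 8 motifs to 91.1% from 71.4% at 50 bp. No paired analysis was possible because there is 1 group, so no samples of different groups could be paired; the tests used differences between gene sets within each replicate.

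With 3 replicates the two-sided sign permutation test cannot fall below p = 0.25. The depth of the libraries is unknown, weak peaks near pooled rank 3844 decide single calls, and the control library was not analysed here.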
